A study of Homo sapiens with 2 samples.

Results

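The nuclear-encoded subunits of respiratory complexes II to V were taken by gene symbol from the CAGE values of PLC/PRF/5 cells. The rule took SDHA to SDHD, CYC1, CYCS and every symbol beginning with UQCR, COX4 to COX8 or ATP5, and it left out pseudogenes whose symbols end in P and digits. It found 46 rows, which gave 44 members, 1 row per symbol, among 16424 listed genes. All 44 members averaged 1 CPM or more over both libraries and so entered every comparison. PLC/PRF/5 is an established line of human hepatoma cells. Mac-2-binding protein glycan isomer (M2BPGi) is a glycosylated serum protein that marks liver fibrosis, and the study asked which signals it regulates in hepatocellular carcinoma cells. The medium was changed either to one with 3 µg/ml M2BPGi or to one without it, and the cells were collected after 6 h. There was 1 library of non-treated and 1 library of M2BPGi-treated cells, so that no difference between them could be set against a spread between replicates.

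CAGE sequences the capped 5′ ends of RNAs, and each tag stands for 1 transcript start. Values are tags relative to the total of a library (CPM) and do not scale with transcript length. The library totals read back from the values were 24040209 tags without and 24862941 tags with M2BPGi. Of the hepatocyte and hepatoma markers, 14 of 14 were listed, with a summed level of 4791 CPM without and 4442 CPM with M2BPGi, 5 of them higher and 9 lower with it. KRT18 was the most abundant of them at 1249.8 and 1592 CPM, FGB was at 950 and 623 CPM, a log2 ratio of -0.61, SERPINA1 at 671 and 455 CPM, a log2 ratio of -0.56, AFP at 695 and 566 CPM, and ALB was low at 8.82 and 7.04 CPM. Of the blood cell markers 2 of 5 were listed, with PTPRC at 0 in both libraries and CD68 at 21.2 and 20.5 CPM. Of the markers of fibroblasts and stellate cells 2 of 6 were listed, COL3A1 at 4.53 and 3.42 CPM and COL1A1 at 0.67 and 0.76 CPM. No marker of endothelium or muscle was listed. KRT19, a bile duct marker that hepatoma lines can carry, was at 164 and 156 CPM.

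Respiratory complexes pass electrons from metabolites to oxygen in the inner mitochondrial membrane. Complex II (succinate dehydrogenase) hands electrons from the TCA cycle to ubiquinone, complex III passes them to cytochrome c, and complex IV passes them to oxygen. Complexes III and IV pump protons, and complex V (ATP synthase) lets the protons flow back through its membrane part Fo to drive ATP synthesis in its head F1. Complex II is encoded in the nucleus alone, whereas III, IV and V also need subunits from the mitochondrial genome. Hepatocytes are rich in mitochondria, and hepatoma lines often rely more on glycolysis.

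Promoters are shown since most members were higher in the same library and their starts are what CAGE reads. RefSeq promoter windows (GRCh38.p14, 250 bases before to 50 after the start) were found for 34 of the 44 members by symbol or synonym, and for the 5 members with several windows the first was read. The letters GCGCANGCG, the core that NRF1 binds, were in 12 of the 34 windows on either strand (35.3%), against 8.05% of 27305 windows of all genes and 16.2% of the 9458 windows of genes tested here. CCGGAAG, the core of ETS factors such as GABPA, was in 14 windows (41.2%), against 10.7% and 20.9%. AAGATGGCG, read by YY1, was in 3 windows (8.82%), against 1.85% and 4.29%. GGGCGG, read by SP1, was in 18 windows (52.9%), against 44.6% and 71.9%. A C at the annotated start with 4 pyrimidines after it, the form of a terminal oligopyrimidine (TOP) start, was in 8 windows (23.5%), against 4.04% and 5.41%. The log2 ratio (M2BPGi-treated over non-treated) had a median of 0.24 over the 21 members with an NRF1 or ETS match. It was 0.18 over the 13 without one. By single motif, the medians with and without a match were 0.20 and 0.19 for NRF1, and 0.20 and 0.19 for ETS. They were 0.26 and 0.18 for YY1, with only 3 windows matched, and 0.21 and 0.16 for SP1. The median was 0.26 over the 8 with a TOP start and 0.16 over the 26 without. A match is a description of letters only, and no tags were placed on these windows.

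To show both ends of the range, the parts of 4 windows outside every annotated exon follow, on the strand of the gene, with NRF1 and ETS matches in capitals. COX6A1 (chr12:120437863-120438089, plus strand) was the lowest subunit of complex IV in log2 ratio and COX7B (chrX:77899218-77899437, plus strand) the highest but one. ATP5H (chr17:75046986-75047183, minus strand) was among the highest of complex V, and UQCR11 (chr19:1605491-1605712, minus strand) lay near the middle of complex III.
COX6A1: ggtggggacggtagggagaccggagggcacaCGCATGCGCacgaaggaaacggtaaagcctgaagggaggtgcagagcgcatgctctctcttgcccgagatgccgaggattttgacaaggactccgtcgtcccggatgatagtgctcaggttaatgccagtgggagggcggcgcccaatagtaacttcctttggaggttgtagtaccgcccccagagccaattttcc
COX7B: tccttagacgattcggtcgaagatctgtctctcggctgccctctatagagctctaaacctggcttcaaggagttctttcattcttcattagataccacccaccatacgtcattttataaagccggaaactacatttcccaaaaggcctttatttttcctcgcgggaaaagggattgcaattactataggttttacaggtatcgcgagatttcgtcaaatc
ATP5H: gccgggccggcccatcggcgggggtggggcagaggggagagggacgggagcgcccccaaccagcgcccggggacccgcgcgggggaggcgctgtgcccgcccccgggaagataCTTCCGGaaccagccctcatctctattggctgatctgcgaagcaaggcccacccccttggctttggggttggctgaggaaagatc
UQCR11: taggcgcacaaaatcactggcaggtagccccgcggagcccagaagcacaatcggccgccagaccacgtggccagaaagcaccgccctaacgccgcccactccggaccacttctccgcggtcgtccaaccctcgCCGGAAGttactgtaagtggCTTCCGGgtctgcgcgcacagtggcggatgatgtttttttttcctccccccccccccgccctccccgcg
The stretch of COX6A1 holds 1 NRF1 match, that of ATP5H 1 ETS match and that of UQCR11 2 ETS matches, while that of COX7B holds neither set of letters.

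Most members were slightly higher in M2BPGi-treated cells. The log2 ratio, computed after adding 1 CPM to both values, was above 0 for 39 of 44 members (88.6%), against 42.9% of the 13724 genes that averaged 1 CPM or more and were tested. Its median was 0.20 over the members, with quartiles of 0.10 and 0.32, and -0.05 over all genes tested. The changes were small, from -0.18 for SDHA to 0.47 for ATP5J2-PTCD1. At least 1.2-fold higher were 15 members (34.1%), against 13.0% of all genes tested, and at least 1.2-fold lower were 0 members, against 24.2%. Centred on the median of genes that averaged 100 CPM or more, a setting added after seeing the data, 33 members were higher, the median was 0.10, 9 members were at least 1.2-fold higher and 1 was at least 1.2-fold lower. The summed level of the members was 18269.6 CPM without and 20536 CPM with M2BPGi, a ratio of 1.12. An exact binomial test of the tags, adjusted over all genes tested by the Benjamini-Hochberg method, sets 1 library against the other and says nothing of the conditions. It called 32 members higher, against 20.9% of all genes tested, and 2 members lower, SDHA and COX6A1, against 28.7%. Of all genes that averaged 100 CPM or more, it called 54.3% higher and 31.2% lower. Of the members at such levels, it called 80.6% higher and 5.56% lower.

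Abundant genes were more often higher in general, and most members are abundant, since 36 of 44 averaged 100 CPM or more. Of the 1924 genes tested at such levels, 62.6% were higher in M2BPGi-treated cells, 23.3% were at least 1.2-fold higher, and the median was 0.10. Many members are short as well. Where these genes were narrowed to the shortest 20% of genes by the median length of their transcripts (up to 650 nt), 455 genes were left, of which 69.7% were higher, 30.3% were past 1.2-fold upwards and 13.8% downwards, with a median of 0.14. By the length of the longest transcript (up to 1677 nt), a definition added after the first had been seen, 571 genes were left, of which 80.2% were higher, 35.2% were past 1.2-fold upwards and 8.23% downwards, with a median of 0.19. By either definition 21 members fell in the shortest 20%, and 19 of these averaged 100 CPM or more. Of the 19, 18 were higher (94.7%) by either definition. By the first, 7 were past 1.2-fold upwards (36.8%) and 0 downwards, with a median of 0.24, and by the second 6 (31.6%) and 0, with a median of 0.24. The 36 members at 100 CPM or more had a median of 0.22, with 91.7% higher and 36.1% at least 1.2-fold higher. Beside short, abundant genes in general, the share of such members past 1.2-fold upwards was thus larger by the first definition and smaller by the second, while the median and the share higher were larger by both. The part of length and level in the members' ratios was not tested further.

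**Figure D1:**
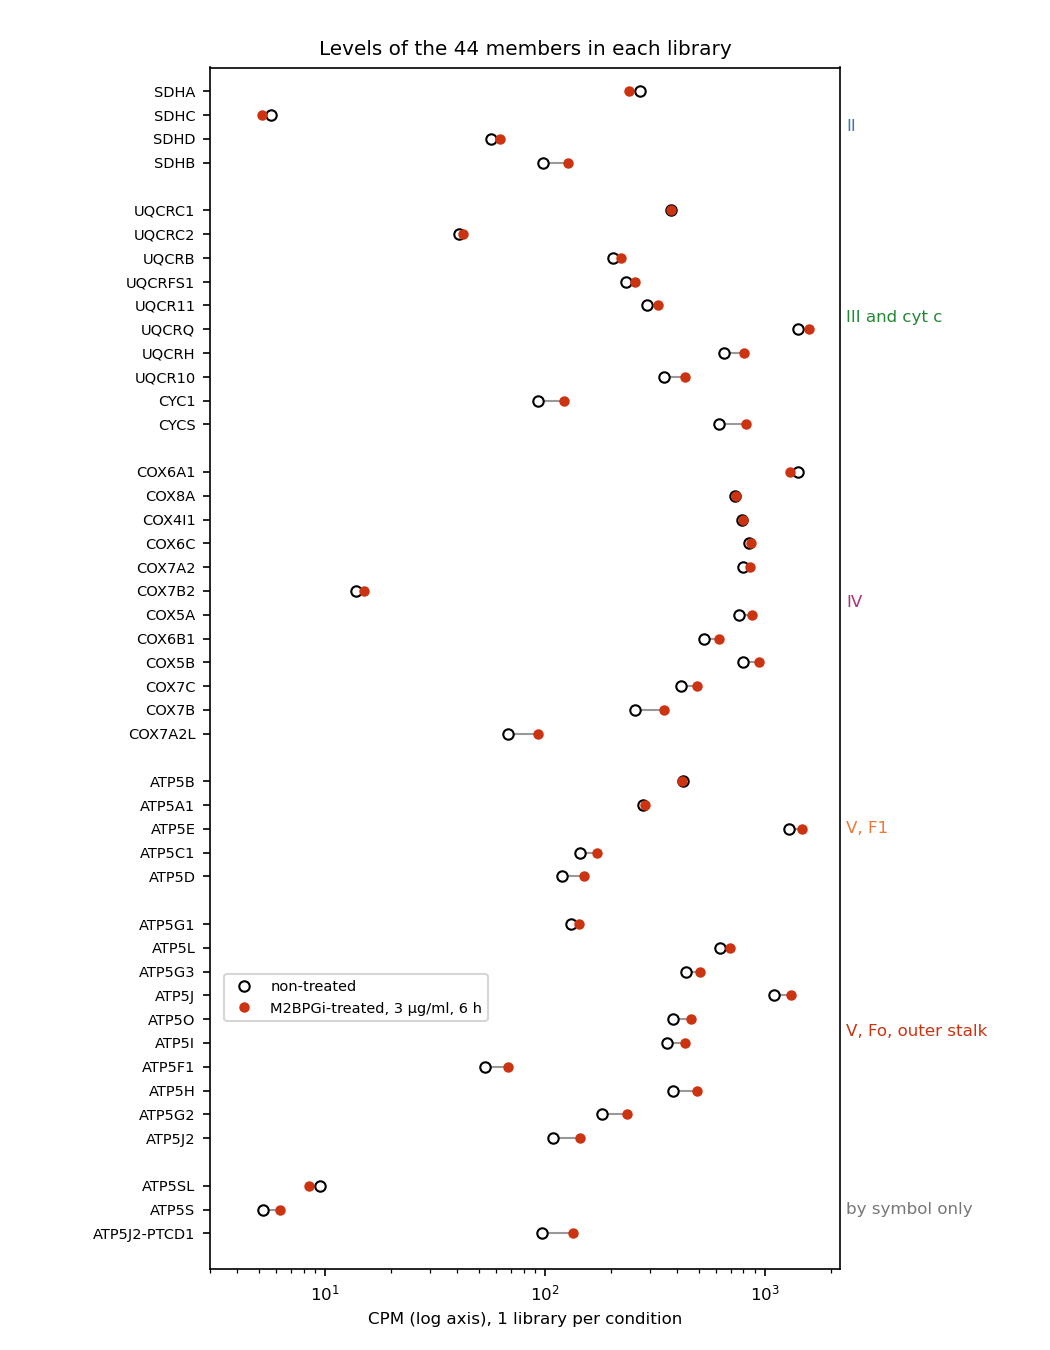
CPM of each of the 44 members (log axis) in the non-treated library (open circles) and the M2BPGi-treated library (filled circles), grouped by complex, with 1 library per condition. Levels span from 5.15 CPM for SDHC to 1595 CPM for UQCRQ, and 39 filled circles lie to the right of their open ones.

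Complex II did not move as a group. Of its 4 subunits 2 were higher and 2 lower, with a median of 0.00, or -0.10 with ratios centred on genes at 100 CPM or more. SDHA, the flavoprotein that oxidises succinate, was at 272 CPM without and 240.6 CPM with M2BPGi, a log2 ratio of -0.18 (95% Clopper-Pearson interval of the tags -0.23 to -0.13). This interval, like all those given here, covers counting error only. SDHB, the iron-sulfur subunit that takes the electrons from SDHA, went the other way, from 98.5 to 127 CPM, a ratio of 0.36 (0.29 to 0.44). The 2 catalytic subunits, which stand 1 to 1 in the enzyme, thus differed in direction. The membrane anchors are SDHC and SDHD. SDHC was listed at 5.70 and 5.15 CPM, and its interval held 0. A processed pseudogene near-identical to SDHC was listed at 48.0 and 54.5 CPM, far above it and higher with M2BPGi, and how tags were divided between the 2 was not tested. SDHD was at 57.0 and 62.3 CPM, a ratio of 0.13 (0.02 to 0.23). SDHD is listed in a pair of rows with the same values, the other under the identifier of an overlapping readthrough gene. In all, 5 listed genes hold a stretch near-identical to SDHA, and 3 of them are copies by symbol, SDHAP1 at 18.3 and 16.7 CPM, SDHAP2 at 4.87 and 2.61 CPM and SDHAP3 at 17.5 and 10.8 CPM. Whether tags were shared between them was not tested.

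All 10 members of complex III and cytochrome c were higher in M2BPGi-treated cells, with a median of 0.16. Of all genes tested 42.9% were higher, and of those at 100 CPM or more 62.6%. At least 1.2-fold higher were 4 of the 10, against 13.0% of all genes tested and 23.3% of those at 100 CPM or more. The tag test called 8 of the 10 higher, against 20.9% and 54.3%. The intervals of UQCRC1 and UQCRC2 held 0. Centred on genes at 100 CPM or more, 8 were higher and 2 lower, with a median of 0.07. The 4 were the carriers of the last step and some of the small subunits. CYCS, cytochrome c itself, which also triggers apoptosis once released from mitochondria, was at 618 CPM without and 823 CPM with M2BPGi, a ratio of 0.41 (0.38 to 0.45). CYC1, the cytochrome c1 that passes electrons to it, was at 93.2 and 123 CPM, a ratio of 0.39 (0.32 to 0.48). UQCR10 was at 348 and 435 CPM, a ratio of 0.32 (0.28 to 0.36). UQCRH, the hinge protein at the docking site of cytochrome c, was at 654 and 801 CPM, a ratio of 0.29 (0.26 to 0.32), and UQCRHL, its intronless relative, was listed under a clone name at 9.07 and 8.73 CPM and is not among the members.

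The core proteins of complex III showed the smallest ratios. UQCRC1 was at 374 CPM in both libraries, a ratio of 0.00 (-0.04 to 0.05). UQCRC2 was at 40.6 and 42.6 CPM, a ratio of 0.07 (-0.05 to 0.20). UQCRB, which helps to bind ubiquinone, was at 203 and 222 CPM, a ratio of 0.13 (0.07 to 0.18). UQCRQ was the most abundant member of all, at 1422 and 1595 CPM, a ratio of 0.17 (0.14 to 0.19). UQCR11 is listed in 2 rows that differ by less than 1 CPM in each library, the higher of which was used.

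**Figure D2:**
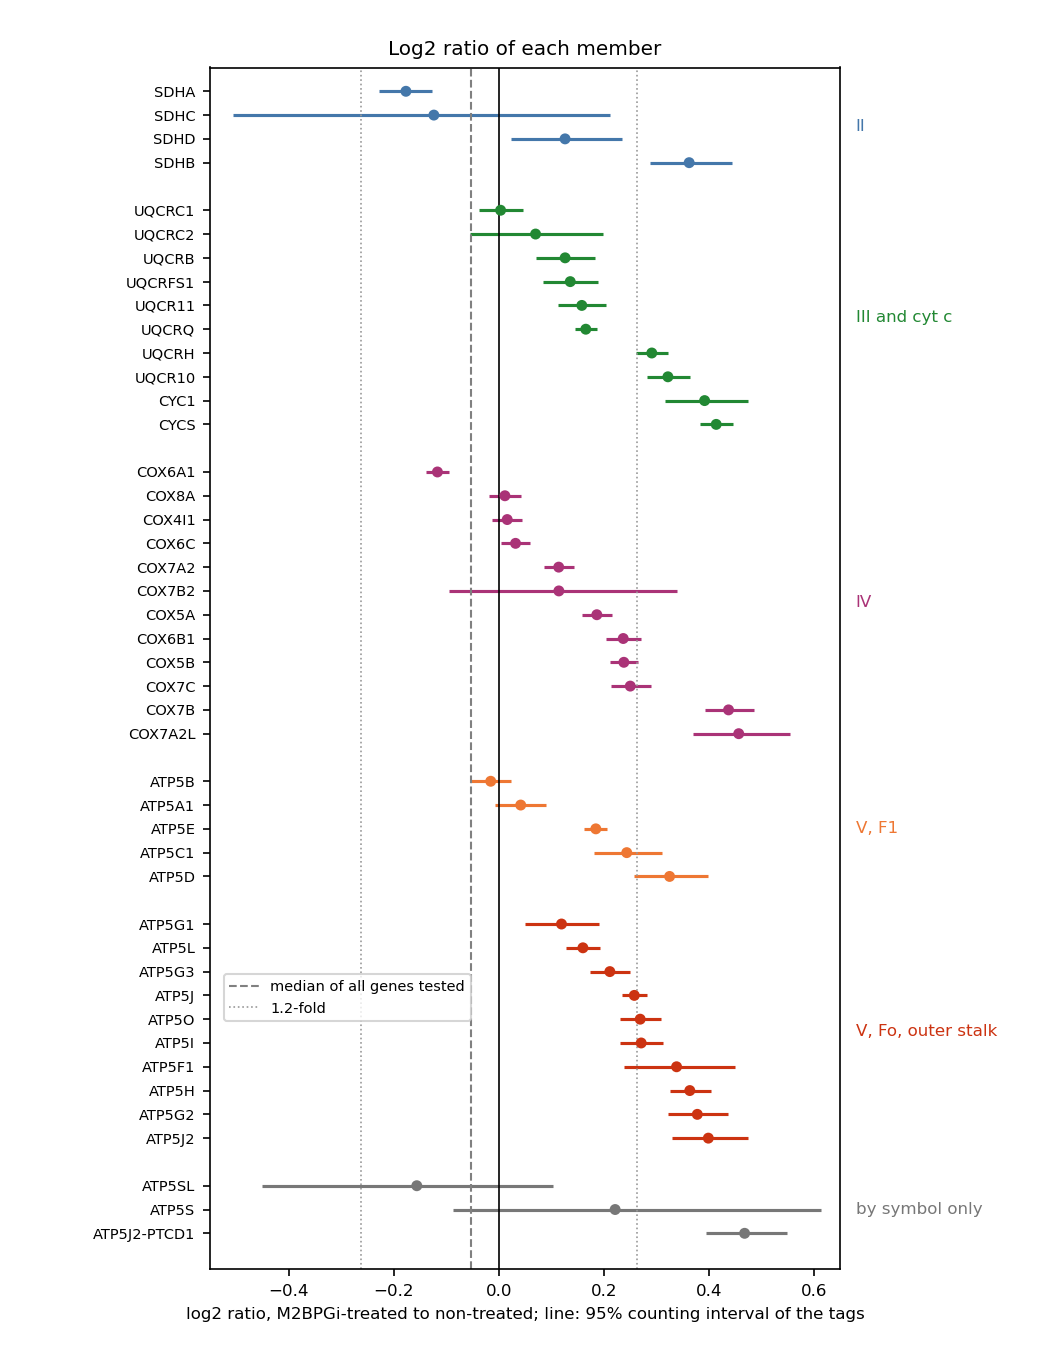
Log2 ratio (M2BPGi-treated over non-treated) of each member (points), with the 95% Clopper-Pearson interval of its tags (lines, counting error only), the median of all genes tested (dashed) and a fold of 1.2 in either direction (dotted). The intervals of 32 members lie above 0, those of SDHA and COX6A1 lie below 0, and those of 10 members hold 0.

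In complex IV, 11 of 12 members were higher (91.7%), against 42.9% of all genes tested, with a median of 0.15. At least 1.2-fold higher were 2 (16.7%), against 13.0% of all genes tested and 23.3% of those at 100 CPM or more. Centred on genes at 100 CPM or more, 8 were higher and 4 lower, with a median of 0.05. COX7A2L, now known mainly as a factor that joins complexes III and IV into supercomplexes, was at 67.8 CPM without and 93.4 CPM with M2BPGi, a ratio of 0.46 (0.37 to 0.56). COX7B was at 257 and 349 CPM, a ratio of 0.44 (0.39 to 0.49). COX7C followed at 415 and 494 CPM, a ratio of 0.25 (0.21 to 0.29). The most abundant subunit of the complex was the 1 that was lower. COX6A1, the form of subunit 6A found outside heart and skeletal muscle, was at 1415 and 1305 CPM, a ratio of -0.12 (-0.14 to -0.09). COX8A was at 736 and 742 CPM, a ratio of 0.01 (-0.02 to 0.04), and COX4I1, the regulatory subunit that binds ATP, was at 785 and 794 CPM, a ratio of 0.02 (-0.01 to 0.05). Ratios within 1 enzyme thus differed by more than their counting intervals.

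Not all isoforms of the subunits of complex IV were listed. COX4I2, COX6A2, COX6B2, COX7A1 and COX8C were not listed, while COX6B1 was at 527 and 622 CPM and COX7A2 at 794 and 860 CPM. COX7B2, a form of COX7B known from testis, was listed at 13.9 and 15.1 CPM. It made up 5.12% of the tags of COX7B and COX7B2 in non-treated cells (4.60% to 5.68%) and 4.15% in M2BPGi-treated cells (3.75% to 4.58%). The share of COX7A2L in the tags of COX7A2 and COX7A2L was 7.86% (7.50% to 8.24%) and 9.80% (9.42% to 10.2%).

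Complex V had the highest median of the 4 complexes, and the median was higher over Fo with the outer stalk than over F1. Of its 15 subunits 14 were higher (93.3%), against 42.9% of all genes tested, and the median was 0.26. At least 1.2-fold higher were 7 (46.7%), against 13.0% of all genes tested and 23.3% of those at 100 CPM or more. With the same centring 13 were higher and 2 lower, with a median of 0.16. Over the 5 subunits of F1 the median was 0.18, and over the 10 of Fo and the outer stalk it was 0.27. The catalytic pair of F1 was nearly the same in both libraries. ATP5B, the beta subunit that makes ATP, was at 424 CPM without and 419 CPM with M2BPGi, a ratio of -0.02 (-0.05 to 0.02). ATP5A1, the alpha subunit beside it, was at 278 and 286 CPM, a ratio of 0.04 (-0.01 to 0.09). ATP5E, the small epsilon subunit, was the most abundant of the complex at 1296 and 1473 CPM, a ratio of 0.18 (0.16 to 0.21).

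All 10 subunits of Fo and the outer stalk were higher, against 42.9% of all genes tested. All 10 were called higher by the tag test, against 20.9% of all genes tested and 54.3% of those at 100 CPM or more. Of the 10, 6 were at least 1.2-fold higher (60.0%), against 13.0% and 23.3%. ATP5J2, subunit f of the membrane part, was at 109 CPM without and 144 CPM with M2BPGi, a ratio of 0.40 (0.33 to 0.48). The readthrough gene ATP5J2-PTCD1 was listed at 96.6 and 134 CPM and PTCD1 at 105 and 144 CPM, and both overlap ATP5J2 in the annotation. Whether the 3 hold the same tags was not tested. ATP5H, subunit d of the outer stalk, was at 382 and 492 CPM, a ratio of 0.36 (0.33 to 0.40). Subunit c, which forms the rotating ring, comes from 3 genes that encode the same mature protein. ATP5G2 was at 182 and 236 CPM, a ratio of 0.38 (0.32 to 0.44). ATP5G3 was at 437 and 506 CPM, a ratio of 0.21 (0.17 to 0.25), and ATP5G1 at 131 and 143 CPM, a ratio of 0.12 (0.05 to 0.19). The share of ATP5G2 in their tags was 24.2% (23.6% to 24.9%) in non-treated and 26.7% (26.1% to 27.3%) in M2BPGi-treated cells, and that of ATP5G1 was 17.5% (17.0% to 18.1%) and 16.1% (15.6% to 16.6%).

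The rule also took 3 symbols placed in none of the 4 complexes. ATP5J2-PTCD1 is described above. ATP5S, a coupling factor, was at 5.20 and 6.23 CPM, and ATP5SL, now known as the complex I assembly factor DMAC2, was at 9.53 and 8.45 CPM, and the intervals of both held 0. Of the other 41 members, which include the electron carrier CYCS and the supercomplex factor COX7A2L, 37 were higher (90.2%), against 42.9% of all genes tested. Of these 41, 14 were at least 1.2-fold higher (34.1%), against 13.0%.

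Some proteins of complexes IV and V have symbols that the rule misses. Of the 4 listed, 4 were higher, against 42.9% of all genes tested, with a median of 0.22, and all 4 were under 1.2-fold. NDUFA4, first placed in complex I and now in complex IV, was at 862 CPM without and 1015 CPM with M2BPGi. C14orf2, a small protein of ATP synthase, was at 404 and 478 CPM, USMG5, another, at 630 and 724 CPM, and ATPIF1, the inhibitor of its ATP hydrolysis, at 410 and 452 CPM.

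Complex I, the entry point for electrons from NADH, was described beside the members. Of its 37 subunits 34 were higher (91.9%), against 42.9% of all genes tested, with a median of 0.20. Past 1.2-fold upwards were 13 (35.1%), against 13.0%, and downwards 0, against 24.2%. NDUFA5 was at 21.1 CPM without and 35.0 CPM with M2BPGi, and NDUFS4 at 58.4 and 88.8 CPM. The lowest ratios were those of NDUFS1, its largest subunit, at 153 and 139 CPM, and of NDUFB1 at 324 and 296 CPM.

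Assembly factors of complexes II to V were more scattered. Of the 37 found by symbol, 27 were higher (73.0%), 12 were past 1.2-fold upwards (32.4%) and 2 downwards (5.41%), with a median of 0.14. The shares over all genes tested were 42.9%, 13.0% and 24.2%. BCS1L, which inserts the Rieske protein into complex III, was at 9.86 and 17.5 CPM, a ratio of 0.77 (0.59 to 1.06), and ATPAF1, a chaperone of the F1 beta subunit, was at 21.3 and 33.0 CPM, a ratio of 0.61 (0.47 to 0.79). PET100 was at 57.9 and 45.8 CPM, a ratio of -0.33 (-0.45 to -0.22), and SURF1 at 99.6 and 82.2 CPM, a ratio of -0.27 (-0.36 to -0.19), and both act in the assembly of complex IV. A further 6 were listed under earlier symbols and are not in these counts, and 4 of the 6 were higher. Among them UQCC2, at 117 and 182 CPM, had a ratio of 0.63, above that of ATPAF1. UQCC1, at 128 and 105 CPM, had a ratio of -0.28, below that of SURF1.

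TCA cycle enzymes had a median of 0.12, with 10 of 14 higher (71.4%), against 42.9% of all genes tested. At least 1.2-fold higher were 2 (14.3%), against 13.0%. SUCLG1 was at 55.6 and 70.8 CPM and DLST at 27.1 and 34.5 CPM, while FH was at 65.0 and 62.2 CPM. Carriers of ATP and phosphate with the outer membrane channels had a median of 0.14 over 6 genes. Of the 6, 5 were higher (83.3%), against 42.9% of all genes tested, and 0 were at least 1.2-fold higher, against 13.0%. SLC25A3, the phosphate carrier, was at 337 and 402 CPM and VDAC2 at 57.7 and 68.0 CPM, against 260 and 278 CPM for SLC25A5 and 216 and 230 CPM for VDAC3.

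Regulators of mitochondrial transcription went both ways, with more of them lower than higher, as among all genes tested. Of the 12 found by symbol and tested, 4 were higher (33.3%) and 8 lower, with a median of -0.10. Over all genes tested, 42.9% were higher and the median was -0.05. The tag test called 1 of the 12 higher, 2 lower and 9 in neither direction. GABPB1 was at 18.6 and 25.5 CPM, a ratio of 0.43 (0.28 to 0.63), and PPRC1 at 17.2 and 18.4 CPM. The lowest of the 12 at an average of 10 CPM or more were TFB2M at 23.3 and 19.8 CPM and TFB1M at 19.5 and 16.9 CPM, both needed to read or translate the mitochondrial genome. MTERF1, listed under an earlier symbol and so not among the 12, was at 20.38 and 16.65 CPM. Its ratio of -0.28 lay below the -0.22 of TFB2M. GABPA, the partner of GABPB1, was at 27.9 and 24.7 CPM, and NRF1 at 5.28 and 4.30 CPM, 2 genes named after their values were seen because their motifs are described above.

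**Figure D3:**
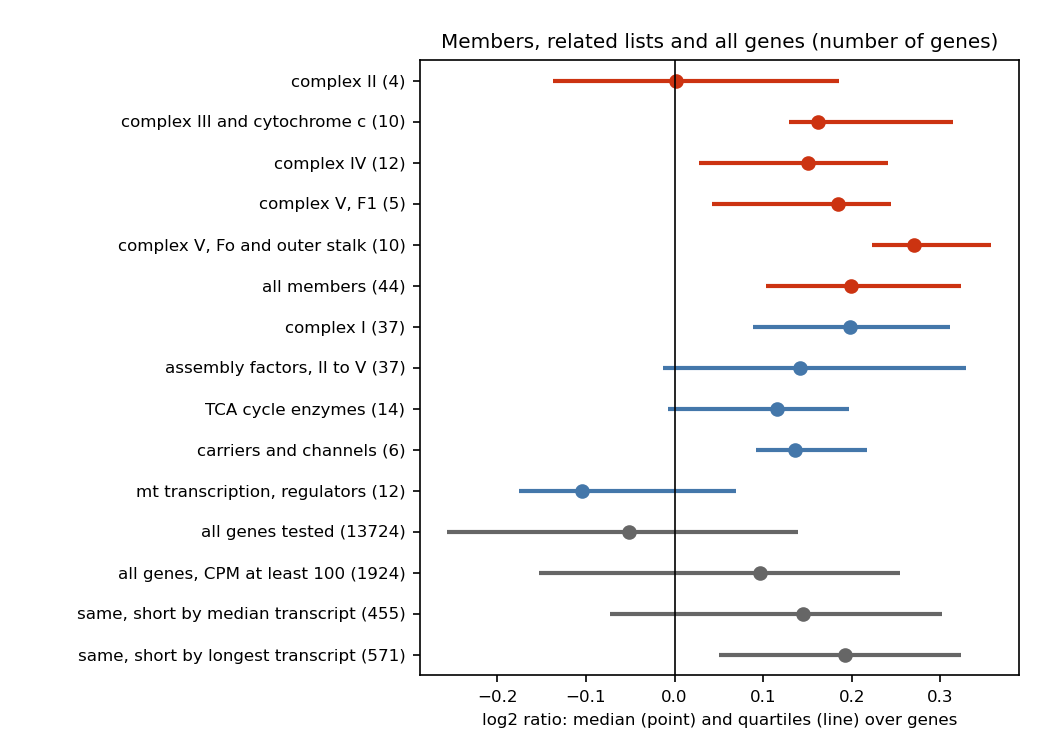
Median (points) and quartiles (lines) of the log2 ratio over genes, for the members by complex (red), related lists (blue) and all genes tested with strata of level and length (grey), with the number of genes in brackets. The median is 0.20 for the members and for complex I, 0.27 for Fo and the outer stalk, -0.05 for all genes tested, and 0.14 or 0.19 for short genes at 100 CPM or more, by the definition of length.

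No listed symbol began with MT- and no listed identifier that GENCODE v29 holds lay on the mitochondrial genome, so that the partners of the members in complexes III, IV and V could not be read directly. Nuclear copies of these partners were listed, and the 12 that averaged 1 CPM or more all had a lower value with M2BPGi, with a median of -0.92. All 12 were at least 1.2-fold lower, against 24.2% of all genes tested. MTATP6P1 and MTATP8P1 were listed with the same values, 4701 CPM without and 2483 CPM with M2BPGi. MTCO2P12 was at 3491 and 1842 CPM, MTCO1P12 at 3066 and 1584 CPM, and MTCYBP18 at 1101 and 609 CPM. These are names from GENCODE v29, and each was listed under another symbol. The members and these copies thus went in opposite directions. Tags of such a copy and of the mitochondrial genome itself cannot be told apart in the listed values, and several copies can hold the same tags.

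Copies of the members named by symbol were mostly scarce. Of 27 listed, 24 processed and 3 unprocessed pseudogenes, 12 were at 0 in both libraries and 13 averaged 1 CPM or more, with a median of 0.01. UQCRBP1 was the highest, at 229 CPM without and 298 CPM with M2BPGi, above UQCRB itself. COX7A2P2 was at 83.9 and 86.2 CPM and COX6CP1 at 73.6 and 74.2 CPM. The symbols miss other copies. In GENCODE v29, 21 members shared a near-identical stretch with a transcript of another gene and 23 with none, with medians of 0.18 and 0.21. Among listed genes 36 held such a stretch, of which 10 were copies by symbol, 4 were other processed pseudogenes and 20 were protein-coding. Most of the protein-coding genes shared a stretch with ATP5C1 (10) or COX4I1 (6), as DNAH14 and MAPK12 did. A shared stretch does not make such a gene a copy, and its origin was not tested. The 4 other processed pseudogenes were like ATP5J2, at 146 and 179 CPM and above it, like SDHC, as given above, like ATP5H, at 65.1 and 86.35 CPM, and like CYCS, at 2.16 and 1.93 CPM. The handling of tags with more than 1 possible origin is not given in the sources used here, and the values of members with such stretches are uncertain to that extent.

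**Figure D4:**
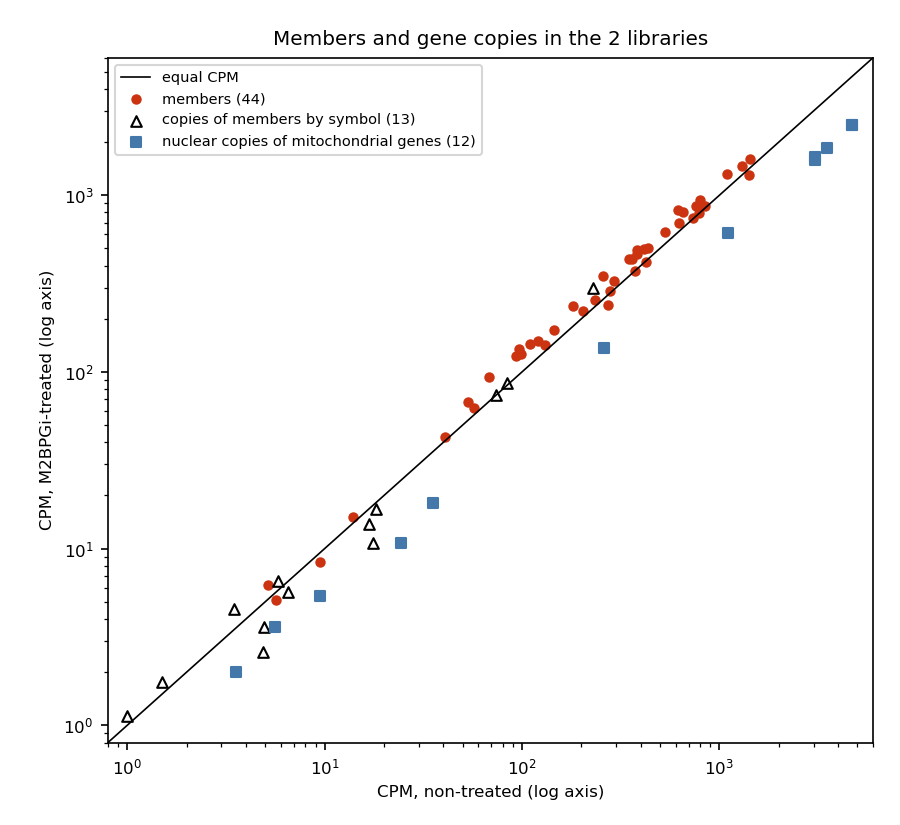
CPM in non-treated (x axis, log) against M2BPGi-treated cells (y axis, log) for the 44 members (red circles), 13 copies of members by symbol (open triangles) and 12 nuclear copies of mitochondrial genes (blue squares). The line marks equal values, and all 12 squares lie below it.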

How the data were processed

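PLC/PRF/5 cells gave 1 CAGE library per condition. The authors discarded ribosomal tags and those with undetermined bases, mapped the remainder with BWA, clustered 5′ ends with CAGEr and deposited CPM per gene, rounded to 2 decimals. The submitters' processing notes name hg19, BWA and HISAT2, whereas the methods name a mouse build; the identifiers are human. Tags were read back from the CPM: in both libraries 100% of values above 0 were whole tags within 0.005 CPM, but this rounding is coarse beside 1 tag (0.0416 CPM without and 0.0402 CPM with M2BPGi) and only 83.2% and 80.4% lay within 0.1 tag of a whole number, so the tag test is secondary. Members and lists were chosen with earlier results of these data known.

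Log2 ratios used a pseudocount of 1 CPM, which understates changes of low genes, over genes averaging 1 CPM or more. Lists were described by medians and counts. Named were SDHA to SDHD, CYC1, CYCS, the 3 highest and 3 lowest ratios and the most abundant member of complexes III, IV and V averaging 10 CPM or more, isoforms, and 2 genes per direction in other lists, of which 1 is not reported here. Transcript length was first the median over GENCODE v29 transcripts; the longest transcript was added after the strata by the first had been seen, and both are given. Near-identical stretches were 100 nt or more, at least 95% identical, within the first 500 nt of a member's transcript (BLAST+ 2.17.0). Lists were matched by the listed symbol, except that nuclear copies of mitochondrial genes were found by the GENCODE v29 name of the identifier. UQCC1, UQCC2 and MTERF1, listed under earlier symbols, were named after their values were seen. Python 3.11.15, scipy 1.17.1, R 4.3.3 and edgeR 4.0.16 (TMM factors only) were used, and scripts were tested on simulated data.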

Additional observations from a re-analysis of the deposited data

Results flagged for a closer look

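UQCRBP1, a processed copy of UQCRB that the members leave out, was at 298 CPM (297.83) in M2BPGi-treated and 229 CPM in non-treated cells, and it was noted since its value lay above that of non-treated cells beyond counting error, with a log2 ratio of 0.38 (0.33 to 0.43). UQCRB itself was at 222 and 203 CPM. Whether tags were exchanged between them was not tested.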

How the results depend on the processing

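Of 46 alternatives to the results for the whole list, 37 stayed within the limits set or within 1.5 times the main count, and 0 changed direction. The limits of the median, 0.16 and 0.26, are the medians of the single members' counting limits and not an interval of the median itself; within them it was 0.20 as reported, 0.25 when centred on all genes tested, 0.25 with TMM factors and 0.25 over the 24 members with no listed copy by symbol. Past 1.2-fold upwards were 15 members, and this count was 27 at a fold of 1.1 and 0 at a fold of 1.5, so that it depends on the fold. The number at least 1.2-fold lower was 0, and it was 2 at a fold of 1.1. Centred on the median of genes that averaged 100 CPM or more, an alternative chosen after seeing the data, the median fell from 0.20 to 0.10, 9 members were at least 1.2-fold higher and 1 was at least 1.2-fold lower, and 33 of 44 members (75.0%) were higher in place of 39 (88.6%). By complex, 2 of 4 in II, 8 of 10 in III, 8 of 12 in IV and 13 of 15 in V were then higher, in place of 2, 10, 11 and 14; centred on all genes tested or with TMM factors it was 15 in V and the same in the others. Among the 23 members without a near-identical stretch elsewhere, also chosen after seeing the data, 8 were at least 1.2-fold higher, from fewer members. The ratio of summed CPM was 1.12, and it was 1.16 with TMM factors and 1.17 over those 24 members. Centring on the median of all genes tested moved 26 of 44 single members out of their counting interval and turned ATP5B, whose interval held 0, from -0.02 to 0.04; the other members kept their direction. The definition of transcript length changed the comparison with short, abundant genes, whose median was 0.14 by the median and 0.19 by the longest transcript; the cause was not tested. No paired analysis was possible because only 1 library stands for either condition. Depth limits SDHC, ATP5S, ATP5SL and COX7B2, whose intervals were the widest.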
